A study of Mus musculus with 89 samples.

Results

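Dyrk1a, Rcan1 and the calcineurin-NFAT pathway they act on were followed through the forebrains of 2 mouse models of Down syndrome. The members were 10 genes, chosen by symbol: Dyrk1a and Rcan1, which lie on mouse chromosome 16 (Mmu16) and are triplicated in both models, and 8 genes present in 2 copies, namely Dyrk1b, Rcan2, Ppp3ca, Ppp3cb, Ppp3r1, Nfatc2, Nfatc3 and Nfatc4. Each was measured by 1 probe set out of 22206 on the array, so all 10 were measured and no filter on signal was applied.

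DYRK1A is a protein kinase, and RCAN1 is a small protein that binds and inhibits the phosphatase calcineurin. A rise in calcium lets calmodulin activate calcineurin, which removes phosphates from NFAT transcription factors so that they enter the nucleus. DYRK1A phosphorylates NFAT factors, which returns them to the cytoplasm, so that DYRK1A, and RCAN1 where it inhibits calcineurin, both keep NFAT phosphorylated. In the developing forebrain DYRK1A is best known for its control of progenitor division and neuron number, and the calcineurin-NFAT pathway for axon growth. These acts fall on protein phosphorylation and location, which an RNA array does not read.

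The study measured total RNA of the forebrain at embryonic day 18.5, with 1 Clariom S array for each of 89 embryos. Ts65Dn embryos (n = 23) carry a small extra chromosome holding the distal part of Mmu16 together with a centromeric piece of Mmu17 that is unrelated to human chromosome 21, and were compared with their euploid littermates, EupTs65Dn (n = 18). Ts66Yah embryos (n = 24) carry the Mmu16 part without that Mmu17 piece, and were compared with EupTs66Yah (n = 24). Both lines were kept on a mixed B6 X C3H background, Ts65Dn passed its extra chromosome only through the mother, and the Ts66Yah colony was expanded from 3 founder females. Each colony gave 6 litters, with 13 females and 10 males among Ts65Dn, 9 and 9 among EupTs65Dn, 13 and 11 among Ts66Yah, and 11 and 13 among EupTs66Yah by label. No embryo was treated.

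Values are log2 signals from robust multi-array averaging (RMA). The array means were 5.26 to 5.33 in Ts65Dn and 5.29 to 5.31 in EupTs65Dn, against 6.37 to 6.40 in Ts66Yah and 6.05 to 6.41 in EupTs66Yah, so no level was compared across colonies. EupTs66Yah replicate 16, called the low-spread array here, had a standard deviation (SD) across probe sets of 1.13, against 2.23 to 2.39 on the other EupTs66Yah arrays, and the Ts66Yah change of each member is given with and without it. Litter values, correlations and pathway genes are given without it unless stated. By 34 other triplicated Mmu16 genes, 4 arrays lay at the level of the opposite genotype: Ts65Dn replicate 18, Ts66Yah replicates 13 and 24, and EupTs66Yah replicate 24. This choice rests on signal, so values of triplicated genes without these arrays favour a wider separation of the genotypes. The Y-linked genes of 17 arrays went against the sex label. Forebrain markers averaged 8.19 to 8.48 per array in Ts65Dn and 8.22 to 8.53 in EupTs65Dn, 8.74 to 9.33 in Ts66Yah and 8.67 to 9.19 in EupTs66Yah over 12 of 14 listed genes; the others were not analysed here. Midbrain and hindbrain markers averaged 3.47 to 4.21 in Ts65Dn and 3.60 to 3.85 in EupTs65Dn, and ranged more widely in the other colony, from 4.91 to 6.99 in Ts66Yah and from 5.12 to 7.13 in EupTs66Yah.

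Dyrk1a was higher in both trisomic groups, by 1.32-fold in Ts65Dn and 1.33-fold in Ts66Yah without the low-spread array. In Ts65Dn forebrains its lowest, median and highest log2 signals were 8.88, 9.29 and 9.50, against 8.56, 8.88 and 9.20 in EupTs65Dn forebrains. Of the 23 Ts65Dn embryos, 17 lay above every EupTs65Dn embryo and 22 above the EupTs65Dn median, while 9 of 18 EupTs65Dn embryos lay below every Ts65Dn embryo. In Ts66Yah forebrains the lowest, median and highest signals were 9.81, 10.38 and 10.55, against 9.77, 9.94 and 10.31 in EupTs66Yah forebrains without the low-spread array, which itself read 7.22. Of the 24 Ts66Yah embryos, 16 lay above every EupTs66Yah embryo. Without the arrays at the opposite genotype's Mmu16 level and the low-spread array, 21 of 22 Ts66Yah embryos lay above every EupTs66Yah embryo, and 17 of 22 Ts65Dn embryos above every EupTs65Dn embryo.

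The mean Dyrk1a signal was 9.29 ± 0.16 in Ts65Dn (SD, n = 23) and 8.89 ± 0.15 in EupTs65Dn (SD, n = 18), a log2 change of 0.40 (standard error, SE, 0.052) or 1.32-fold with a 95% interval of 1.23 to 1.42 (limma, Benjamini-Hochberg adjusted p = 1.1e-06 over all probe sets). It was 10.34 ± 0.17 in Ts66Yah (SD, n = 24) and 9.93 ± 0.12 in EupTs66Yah without the low-spread array (SD, n = 23), a log2 change of 0.41 (SE 0.047) or 1.33-fold with an interval of 1.24 to 1.42 (limma, adjusted p = 1.7e-07). Both intervals lay below 1.5-fold, the ratio of 3 gene copies to 2. The medians of the 34 other triplicated Mmu16 genes lay below it too, at 1.37-fold in Ts65Dn and 1.33-fold in Ts66Yah without the low-spread array. With all 48 arrays of the Ts66Yah colony the Dyrk1a log2 change was 0.52 (SE 0.12), 1.43-fold with an interval of 1.21 to 1.70. Its limma adjusted p was 0.053, inside the 10% threshold used here, but 0.11 with the litter as a block. With the low-spread array left out, Dyrk1a passed with the litter as a block as well (limma, adjusted p = 1.1e-06).

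Rcan1 also rose in both models. Mouse Rcan1 is read from alternative first exons, and the promoter of the shorter transcript is known for its response to calcineurin and NFAT, which makes Rcan1 both an inhibitor and a target of the pathway. Rcan1 was measured by 1 probe set, and its transcripts were not told apart here. Its 2 start sites are shown because they differ in the core NFAT letters: below are the 250 bases before each start in RefSeq (build GRCm38.p6, minus strand, written 5′ to 3′), with GGAAA and its reverse complement TTTCC in capitals.

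Rcan1 downstream start, chr16:92400079-92400328: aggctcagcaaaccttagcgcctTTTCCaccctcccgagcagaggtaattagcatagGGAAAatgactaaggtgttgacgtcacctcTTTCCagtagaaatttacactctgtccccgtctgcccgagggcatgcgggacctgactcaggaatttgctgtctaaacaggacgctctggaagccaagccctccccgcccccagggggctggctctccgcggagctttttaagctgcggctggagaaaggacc

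Rcan1 upstream start, chr16:92466170-92466419: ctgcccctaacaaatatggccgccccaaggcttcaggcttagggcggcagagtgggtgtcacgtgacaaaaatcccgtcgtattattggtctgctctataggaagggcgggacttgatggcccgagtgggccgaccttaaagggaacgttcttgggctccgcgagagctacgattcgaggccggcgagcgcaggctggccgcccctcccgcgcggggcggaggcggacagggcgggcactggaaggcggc

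The downstream window held 3 such matches and the upstream window 0. GGAAA or TTTCC was the only motif searched, on both strands, and 55.6% of 32851 promoter windows of this length held it at least once, with a median of 1 per window and at least 3 in 6.39% of windows. Of the other members, Ppp3ca had no window in the table. Across the 17 windows of the 9 members that had one, 11 held the motif, and the single windows of Ppp3cb and Nfatc4 and a window of Nfatc2 held 3 each. The 3 windows of Dyrk1a held 0 to 2. A match is a description of these letters and not of binding.

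In Ts65Dn forebrains the lowest, median and highest Rcan1 signals were 7.31, 8.10 and 8.34, against 7.07, 7.50 and 7.82 in EupTs65Dn forebrains. Of the 23 Ts65Dn embryos, 21 lay above every EupTs65Dn embryo, and the lowest was replicate 18, which also read as euploid by the other Mmu16 genes. In Ts66Yah forebrains the signals were 8.52, 9.16 and 9.67, against 8.37, 8.65 and 9.22 in EupTs66Yah forebrains without the low-spread array, which read 7.06. Only 6 of 24 Ts66Yah embryos lay above every EupTs66Yah embryo, because EupTs66Yah replicate 24, at the trisomic Mmu16 level, held the euploid maximum of 9.22. Without the 3 arrays of this colony at the opposite level and the low-spread array, 21 of 22 Ts66Yah embryos stood above every euploid embryo.

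Mean Rcan1 signal was 8.04 ± 0.21 in Ts65Dn (SD, n = 23) and 7.52 ± 0.21 in EupTs65Dn (SD, n = 18), a log2 change of 0.53 (SE 0.068) or 1.44-fold with an interval of 1.31 to 1.59 (limma, adjusted p = 8.8e-07). This interval held 1.5-fold. In the other colony it was 9.09 ± 0.26 in Ts66Yah (SD, n = 24) and 8.64 ± 0.19 in EupTs66Yah without the low-spread array (SD, n = 23), a log2 change of 0.45 (SE 0.067) or 1.36-fold with an interval of 1.24 to just under 1.5 (limma, adjusted p = 2.3e-05). With all arrays it was 1.43-fold, with an interval of 1.25 to 1.63 (limma, adjusted p = 0.0039).

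**Figure D1:**
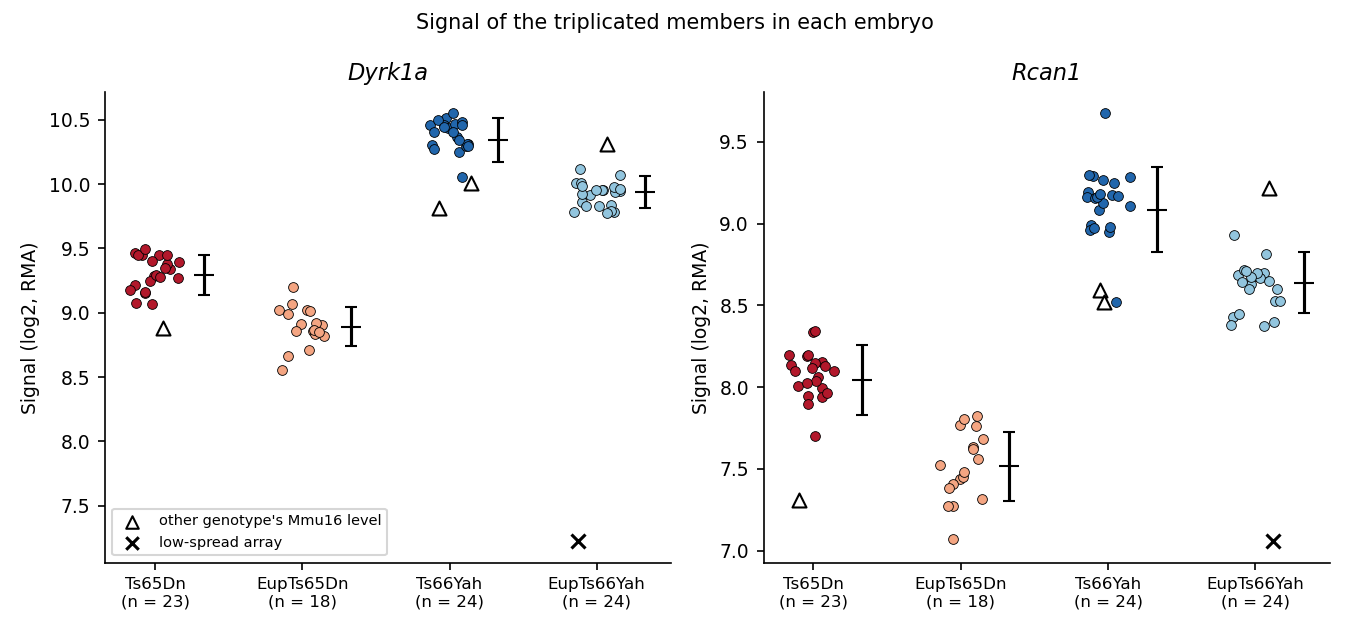
Log2 RMA signal of Dyrk1a (left) and Rcan1 (right) in each embryo of the 4 groups, with mean and SD beside the points (the low-spread array is left out of both). Open triangles are the 4 arrays whose other Mmu16 genes lay at the opposite genotype's level, and the cross is the low-spread array: the triangles lie toward the opposite group for both genes, and the cross lies at 7.22 for Dyrk1a and 7.06 for Rcan1. The 2 colonies lie at different array levels and are not compared with each other.

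The sizes of these changes moved when the arrays at the opposite genotype's level were left out. Those arrays were picked by the signal of other triplicated genes, so leaving them out favours a wider difference for Dyrk1a and Rcan1. In the Ts65Dn colony Dyrk1a then came to 1.34-fold and Rcan1 to 1.48-fold. In the Ts66Yah colony, also without the low-spread array, Dyrk1a came to 1.38-fold with an interval of 1.31 to 1.45, and Rcan1 to 1.44-fold with an interval of 1.33 to 1.55. The 34 other triplicated Mmu16 genes had a median of 1.37-fold in Ts65Dn, with 32 called higher, and of 1.33-fold in Ts66Yah without the low-spread array, with 33 called higher. Over all arrays of the Ts66Yah colony their median was 1.46-fold, with 14 called higher. Beside them, Dyrk1a lay below the median of the group in Ts65Dn and Rcan1 above it, a description for which no test was made.

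Trisomic and euploid embryos could also be set side by side within litters. Dyrk1a was higher in the trisomic embryos of all 6 Ts65Dn litters, by 0.33 to 0.48 log2 units (median 0.38). It was likewise higher in all 6 Ts66Yah litters, by 0.32 to 0.57 (median 0.41) without the low-spread array, which raised the highest litter value to 0.93. The lowest of these litters held arrays at the opposite genotype's level: without them Dyrk1a came to 0.53 in place of 0.32 in litter WT19, and its range was 0.39 to 0.57 over the Ts66Yah litters and 0.33 to 0.48 over the Ts65Dn litters. Rcan1 was higher in all 6 litters of each colony too, with a wider spread between litters. Its difference ran from 0.30 in litter TS18 to 0.83 in litter TS11 among Ts65Dn litters, and from 0.18 in litter WT19 to 0.73 in litter WT12 among Ts66Yah litters, with or without the low-spread array. Both lowest values rested on arrays at the opposite level, and without these Rcan1 came to 0.46 in litter TS18 and 0.50 in litter WT19, with ranges of 0.40 to 0.83 among Ts65Dn litters and 0.43 to 0.73 among Ts66Yah litters. The extra Rcan1 in single litters thus covered a range on both sides of 0.58, the log2 of 1.5, while no litter without the low-spread array reached that value for Dyrk1a. Litters held 1 to 6 euploid embryos, and differences between litters were not tested.

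**Figure D2:**
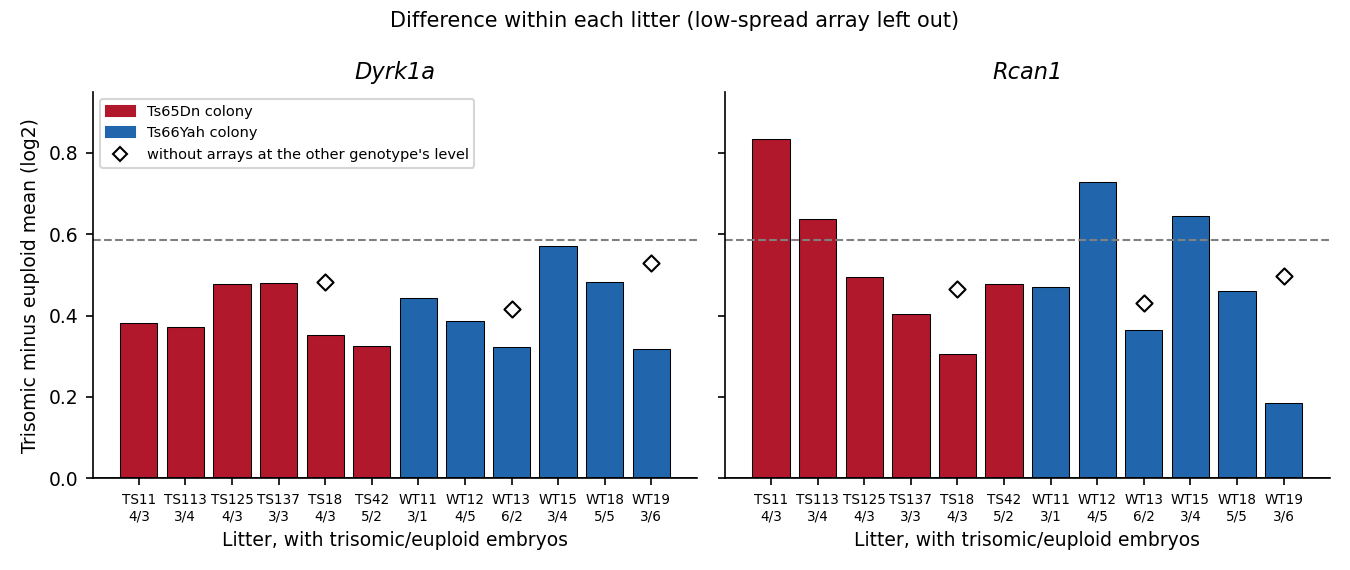
Trisomic minus euploid mean log2 signal of Dyrk1a (left) and Rcan1 (right) in each litter, with the numbers of trisomic and euploid embryos under the litter's name and the low-spread array left out; the dashed line is the log2 of 1.5. Bars include the arrays at the opposite genotype's level, and diamonds give the litters that held them without those arrays. All bars are above 0, Dyrk1a from 0.32 to 0.57 and Rcan1 from 0.18 to 0.83, and in litter WT19 the diamonds stand at 0.53 and 0.50.

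The 2 triplicated genes were the 2 members called in each model, at an adjusted p under 10%. In Ts65Dn this was 2 of 10 members against 0.491% of all probe sets (109 of 22206), in Ts66Yah 2 of 10 against 0.171% with all arrays (38) and 0.932% without the low-spread array (207). Both members rose, and the probe sets called higher were 0.459% of all in Ts65Dn, 0.162% in Ts66Yah with all arrays and 0.757% without the low-spread array. The members were chosen knowing that these genes are triplicated. None of the 8 genes present in 2 copies was called in either model by limma or by the unpaired t-test of the series' text, and the lowest adjusted p that any of them reached under the settings tried was 0.62 in Ts65Dn and 0.25 in Ts66Yah. At an unadjusted p under 0.05, 0 of these 8 passed in Ts65Dn, 0 in Ts66Yah with all arrays, and 1, Ppp3r1, without the low-spread array. Over all 22206 probe sets, 1285, 2271 and 2689 passed at that level in the same comparisons. Which members passed varied with the setting. With the litter as a block, Nfatc3 passed in Ts65Dn (limma, unadjusted p = 0.049), as did 1244 of all probe sets. In Ts66Yah without the low-spread array and the arrays at the opposite genotype's level, Rcan2 passed and Ppp3r1 did not (limma, unadjusted p = 0.026 and 0.051). There 2970 of all probe sets passed. In the bulk forebrain, a change in the number of cells of a type and a change in RNA per cell cannot be told apart.

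**Figure D3:**
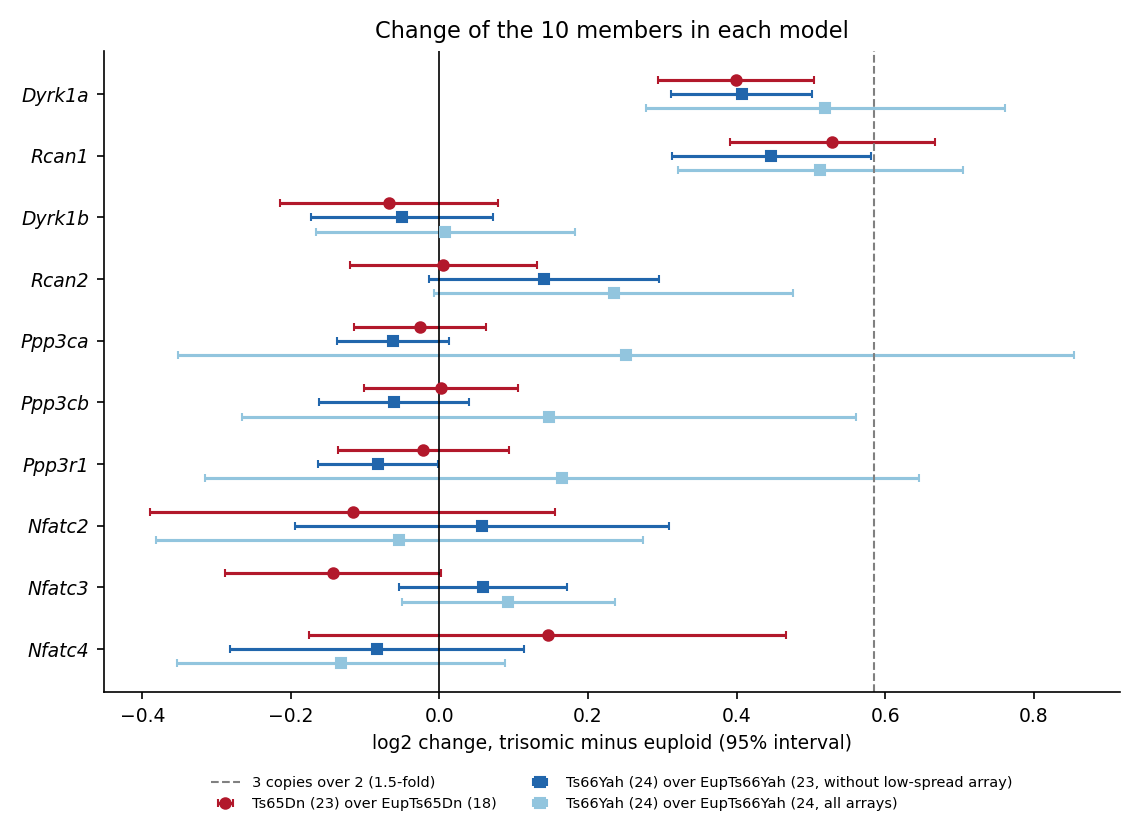
Log2 change of the 10 members, trisomic minus euploid, with 95% intervals from limma, for Ts65Dn and for Ts66Yah without and with the low-spread array; the solid line marks no change and the dashed line 1.5-fold. Dyrk1a and Rcan1 lie to the right of 0 in every fit, the points of the 8 other members span -0.14 to 0.25, and the low-spread array widens the intervals of Ppp3ca, Ppp3cb and Ppp3r1.

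The paralogues of the triplicated pair were not called in either model. Dyrk1b, a kinase close to DYRK1A, had lowest, median and highest signals of 6.47, 6.84 and 7.38 in Ts65Dn, against 6.49, 7.00 and 7.22 in EupTs65Dn. Its log2 change was -0.07 (SE 0.073; limma, adjusted p = 0.97), and it was lower in the trisomic embryos of 5 of 6 litters. In the other colony Dyrk1b had 6.99, 7.48 and 7.84 in Ts66Yah, against 7.24, 7.51 and 7.86 in EupTs66Yah without the low-spread array, a log2 change of -0.05 (SE 0.061), which was 0.01 (SE 0.087) with that array. Rcan2 encodes another calcineurin inhibitor of the same family. It had 8.31, 8.69 and 9.03 in Ts65Dn, against 8.43, 8.67 and 8.94 in EupTs65Dn, with a log2 change of 0.01 (SE 0.062). In Ts66Yah it had 9.16, 10.10 and 10.41, against 9.49, 9.85 and 10.29 in EupTs66Yah with that array left out. There 19 of 24 Ts66Yah embryos lay above the euploid median, and the log2 change of 0.14 (SE 0.077) had an interval of -0.01 to 0.30 and did not pass (limma, adjusted p = 0.47), as with all arrays, at 0.23 (SE 0.12; adjusted p = 0.49). With the arrays at the opposite genotype's level left out as well as the low-spread array, the Rcan2 change was 0.18 (SE 0.078). Its interval was 0.02 to 0.34, and it did not pass (limma, unadjusted p = 0.026, adjusted p = 0.30).

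Calcineurin is a heterodimer of a catalytic A subunit and a calcium-binding regulatory B subunit. Ppp3ca, the alpha form of the catalytic subunit, had lowest, median and highest signals of 10.33, 10.56 and 10.73 in Ts65Dn, against 10.23, 10.56 and 10.81 in EupTs65Dn. The medians were equal to 2 decimals, and the log2 change of -0.03 (SE 0.044) had an interval of -0.12 to 0.06. In Ts66Yah Ppp3ca had 11.16, 11.49 and 11.57, against 11.19, 11.57 and 11.70 in EupTs66Yah without the low-spread array. Only 1 of 24 Ts66Yah embryos lay above the EupTs66Yah median, yet the log2 change was -0.06 (SE 0.037), with an interval of -0.14 to 0.01, and did not pass (limma, adjusted p = 0.51). The low-spread array read 3.99 for Ppp3ca, and with it the log2 change took the opposite sign, 0.25 (SE 0.30).

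Ppp3cb, the beta form of the catalytic subunit, ran from 10.30 to 10.96 in Ts65Dn and from 10.41 to 10.84 in EupTs65Dn, with a log2 change of 0.00 (SE 0.051). It ran from 11.52 to 12.02 in Ts66Yah and from 11.50 to 12.30 in EupTs66Yah without the low-spread array, with a log2 change of -0.06 (SE 0.050), and of 0.15 (SE 0.21) with it. Neither comparison of Ppp3cb passed. Ppp3r1, the regulatory subunit, ran from 9.98 to 10.64 in Ts65Dn and from 9.92 to 10.71 in EupTs65Dn, with a log2 change of -0.02 (SE 0.057). In Ts66Yah its lowest, median and highest signals were 10.91, 11.10 and 11.45, against 10.91, 11.20 and 11.40 in EupTs66Yah without the low-spread array. Here 5 of 24 Ts66Yah embryos lay above the euploid median, with a log2 change of -0.08 (SE 0.040; limma, unadjusted p = 0.046, adjusted p = 0.41). With all arrays the change of Ppp3r1 was 0.17 (SE 0.24), since the low-spread array read 5.25. All 3 subunits thus had log2 changes just below 0 in Ts66Yah without the low-spread array, between -0.08 and -0.06, and above 0 with it, between 0.15 and 0.25, and none passed in either setting.

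The NFAT factors are the substrates on which calcineurin and DYRK1A meet. Nfatc3 had lowest, median and highest signals of 6.52, 7.18 and 7.55 in Ts65Dn, against 6.82, 7.27 and 7.65 in EupTs65Dn. It was lower in the Ts65Dn embryos of 5 of 6 litters, and the log2 change of -0.14 (SE 0.072) had an interval of -0.29 to 0.00 and did not pass (limma, unadjusted p = 0.054, adjusted p = 0.87). In Ts66Yah Nfatc3 had 8.02, 8.31 and 8.56, against 7.65, 8.23 and 8.59 in EupTs66Yah without the low-spread array, a log2 change of 0.06 (SE 0.056), and of 0.09 (SE 0.072) with it. Its change in Ts65Dn minus that in Ts66Yah was -0.24 (SE 0.10) with all arrays and -0.20 (SE 0.090) without the low-spread array, which did not pass over all probe sets (limma, unadjusted p = 0.023 and 0.027, adjusted p = 0.68 and 0.64).

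Nfatc2 and Nfatc4, further NFAT factors, had SDs of 0.41 to 0.47 and of 0.27 to 0.57 across the 4 groups without the low-spread array, where no other member exceeded 0.29. Both were dim, and neither was kept by the filter at the median signal in any comparison. Median signals were 3.51 in Ts65Dn and 3.63 in EupTs65Dn for Nfatc2, and 4.54 and 4.36 for Nfatc4. The array medians there were 5.22 to 5.38 in Ts65Dn and 5.29 to 5.39 in EupTs65Dn. Nfatc2 ran from 2.71 to 4.31 in Ts65Dn and from 2.92 to 4.29 in EupTs65Dn, with a log2 change of -0.12 (SE 0.14). In the other colony it ran from 4.16 to 5.84 in Ts66Yah and from 4.22 to 5.88 in EupTs66Yah without the low-spread array, with a log2 change of 0.06 (SE 0.13), and of -0.05 (SE 0.16) with it. Nfatc4 ran from 3.45 to 5.48 in Ts65Dn and from 3.59 to 5.35 in EupTs65Dn, with a log2 change of 0.15 (SE 0.16) and the trisomic mean higher in 5 of 6 litters. It ran from 5.02 to 5.86 in Ts66Yah and from 4.68 to 6.22 in EupTs66Yah without the low-spread array, with a log2 change of -0.08 (SE 0.098), and of -0.13 (SE 0.11) with it. The groups overlapped almost wholly for both genes, and the intervals, which reach from -0.39 to 0.16 for Nfatc2 and from -0.18 to 0.47 for Nfatc4 in Ts65Dn, leave changes of that size undetected.

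The effect of trisomy on each member was then compared between the models in 1 fit of all arrays. The difference (Ts65Dn effect minus Ts66Yah effect) passed for 0 of 10 members, against 0.00901% of all probe sets (2 of 22206) with all arrays and 0.149% (33) without the low-spread array. At an unadjusted p under 0.05 only Nfatc3 passed, in both settings. Over all 22206 probe sets, 1565 passed at that level with all arrays and 1585 without the low-spread array. For Dyrk1a the difference was -0.12 (SE 0.14) with all arrays and -0.01 (SE 0.068) without the low-spread array, with an interval of -0.14 to 0.13 in the second. For Rcan1 it was 0.02 (SE 0.12) with all arrays and 0.08 (SE 0.095) without, with an interval of -0.11 to 0.27. These intervals bound the difference between the models and do not show that the effects are equal.

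Dyrk1a and Rcan1 rose with the same extra chromosome, but in no group did a positive relation between their levels pass the permutation test. This relation was examined after the values had been seen, in 4 groups, and in the 3 groups that held arrays at the opposite genotype's level also without these. The low-spread array was left out, and p-values were adjusted over the 21 tests of r, rho and r within litters, with the 10% threshold. Across the 18 EupTs65Dn embryos, embryos with more Dyrk1a had less Rcan1: Pearson's r was -0.68 (permutation p = 0.0018, adjusted 0.019) and Spearman's rho -0.79 (permutation p = 0.00021, adjusted 0.0044). Without the 2 embryos farthest from the median of Dyrk1a r was -0.67. These tests ignore the litter, and within litters r was -0.41 and did not pass (permutation within litters, p = 0.11, adjusted 0.30). In this group Dyrk1a signal also ran with the SD of the array across probe sets, with r = 0.56, against -0.25 for Rcan1, and the part of array spread in the relation was not tested.

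The other groups did not pass. In Ts65Dn r was 0.17 over 23 embryos and rho -0.18, and without the array at the euploid level r was -0.48 over 22 embryos (permutation p = 0.022, adjusted 0.16) and rho -0.35 (permutation p = 0.11, adjusted 0.30). Without the 2 embryos farthest from the median of Dyrk1a r was -0.21. This step also narrows the range of Dyrk1a, so it cannot show that the relation rested on those 2. In Ts66Yah r was 0.27 over 24 embryos and rho -0.01, and without the arrays at the euploid level -0.43 over 22 embryos (permutation p = 0.051, adjusted 0.21) with rho -0.30, and -0.03 without the 2 farthest. Within litters and without those arrays r was -0.49 in Ts65Dn (permutation p = 0.06, adjusted 0.21) and -0.55 in Ts66Yah (permutation p = 0.035, adjusted 0.18). In EupTs66Yah r was 0.31 over 23 embryos and rho 0.02, and without the array at the trisomic level -0.24 over 22 embryos (permutation p = 0.29, adjusted 0.47) with rho -0.12. The sign of r turned in these 3 groups with 1 or 2 arrays left out, and whether r differs between groups was not tested.

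**Figure D4:**
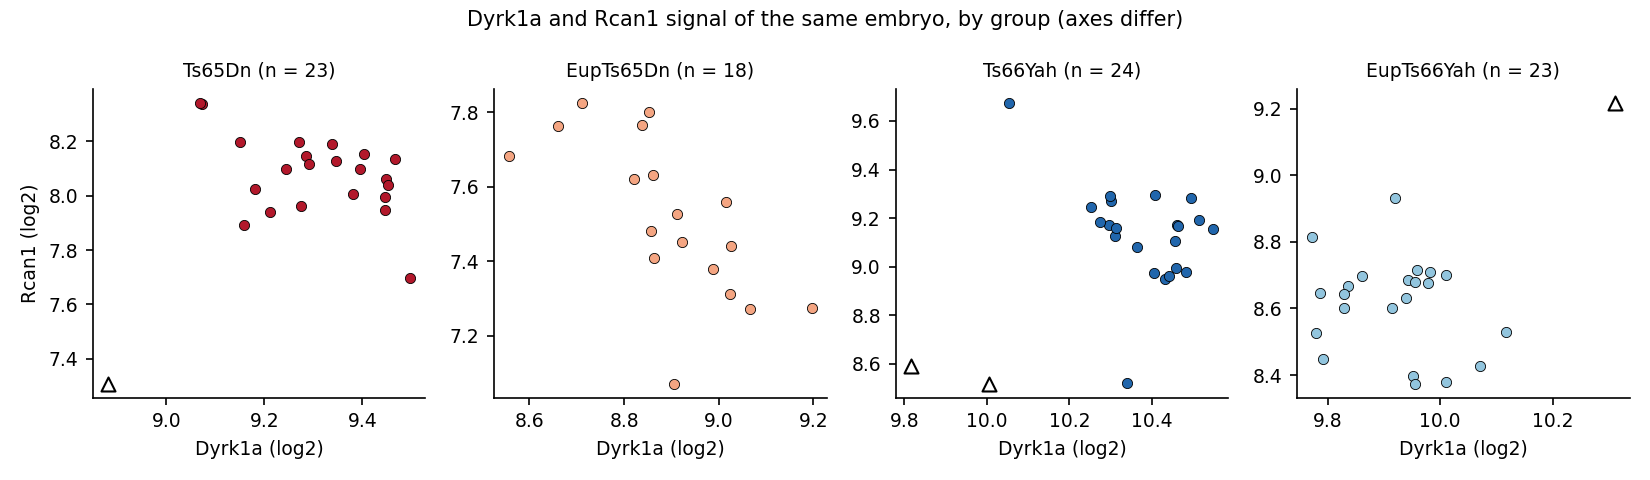
Rcan1 against Dyrk1a log2 signal of the same embryo in each group, without the low-spread array; open triangles are arrays whose other Mmu16 genes lay at the opposite genotype's level, and the axes differ between panels. Points fall from upper left to lower right in EupTs65Dn (r = -0.68, n = 18), while in the Ts65Dn, Ts66Yah and EupTs66Yah panels the triangles sit apart from the rest.

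The genes whose residuals from the group means ran most like those of Dyrk1a over 88 arrays (without the low-spread array) were Get1 (r = 0.60), Cryzl1 (0.59), Paxbp1 (0.58), Itsn1 (0.55) and Gabpa (0.54). Those most like Rcan1 were Atp5o (r = 0.63), Pcp4 (0.63), Sod1 (0.62), Tecr (0.57) and Fxyd7 (0.55). Get1, Cryzl1, Paxbp1, Itsn1, Atp5o and Sod1 are among the 34 triplicated Mmu16 genes by which the 4 arrays stood apart. Gabpa, Pcp4, Tecr and Fxyd7 were not in that check, which does not tell whether they are triplicated. Without those 4 arrays the lists changed. Over 84 arrays Zfp729a (r = 0.65), Selenoi (0.61), Wdr47 (0.61), Rbm25 (0.60) and Smarcad1 (0.59) were most like Dyrk1a, and Map1lc3a (0.63), Resp18 (0.58), Tle5 (0.55), Ndufb11 (0.55) and Fxyd7 (0.54) most like Rcan1, with Fxyd7 the only gene named in both lists of Rcan1. By the same measure Dyrk1a and Rcan1 correlated with each other at 0.07 over 88 arrays and at -0.48 over 84, the second being -0.59 in the Ts65Dn colony and -0.36 in the Ts66Yah colony. The arrays share their normalization, colony and litters, and these correlations are descriptions.

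Around the members, 59 of 65 other genes of the pathway were measured, by 61 probe sets. The other listed genes were not analysed here. None of the 61 probe sets was called by limma in Ts65Dn or in Ts66Yah with or without the low-spread array, where 0.491%, 0.171% and 0.932% of all probe sets were. At an unadjusted p under 0.05, 4 of 61 passed in Ts65Dn, 4 in Ts66Yah with all arrays and 12 without the low-spread array, when 1285, 2271 and 2689 of all 22206 did. Their median log2 change was 0.00 in Ts65Dn, 0.12 in Ts66Yah with all arrays and 0.02 without the low-spread array, beside medians over all probe sets of 0.00, 0.04 and 0.00.

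Of the other DYRK, HIPK, RCAN, calcineurin and NFAT family genes, 6 of 10 probe sets had changes above 0 in Ts65Dn and 7 of 10 in Ts66Yah without the low-spread array. The smallest p belonged to the kinase gene Hipk4 in Ts65Dn, with a log2 change of 0.27 (limma, adjusted p = 0.77), and to the kinase gene Dyrk4 in Ts66Yah without the low-spread array, with -0.28 (limma, adjusted p = 0.37). Among calcineurin regulators and anchors, Akap5, which anchors calcineurin at the synapse, had -0.17 in Ts65Dn (limma, adjusted p = 0.78). Cabin1, a calcineurin-binding inhibitor, had 0.15 in Ts66Yah without the low-spread array (limma, adjusted p = 0.33). All 7 probe sets of that list had changes above 0 in Ts66Yah in that setting, with a median of 0.09, and 4 of 7 in Ts65Dn, with a median of 0.02.

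The kinases that send NFAT back out of the nucleus beside DYRK1A kept close to 0. Gsk3b, one of them, had a log2 change of -0.10 in Ts65Dn (limma, adjusted p = 0.71), and Csnk1d, a casein kinase gene, had 0.08 in Ts66Yah without the low-spread array (limma, adjusted p = 0.41). The 6 genes of this list spanned -0.10 to 0.01 in Ts65Dn and -0.03 to 0.09 in Ts66Yah without the low-spread array, but 0.15 to 0.30 with it. On the calcium side, Stim1, the calcium sensor of the endoplasmic reticulum, had 0.23 in Ts65Dn (limma, adjusted p = 0.88). Orai2, a channel subunit opened by such sensors, had -0.21 in Ts66Yah without the low-spread array (limma, adjusted p = 0.21).

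Among DYRK1A partners and substrates, Dcaf7, a scaffold that binds DYRK1A, had -0.10 in Ts65Dn (limma, adjusted p = 0.65), and Cry2, a clock protein gene, had 0.15 in Ts66Yah without the low-spread array (limma, adjusted p = 0.26). The 12 probe sets of this list spanned -0.10 to 0.11 in Ts65Dn and -0.10 to 0.15 in Ts66Yah without the low-spread array. Genes described as NFAT targets, many of them from immune cells, lay on both sides of 0, with 6 of 16 probe sets above it in Ts65Dn (median -0.03) and 7 of 16 in Ts66Yah without the low-spread array (median 0.00). The smallest p there belonged to Myc in Ts65Dn, with a log2 change of -0.10 (limma, adjusted p = 0.93), and to the early response gene Egr3 in Ts66Yah without the low-spread array, with 0.29 (limma, adjusted p = 0.32). The 16 probe sets stand for 14 genes, since Egr3 had several, and its value is that of the probe set with the smallest p. With all arrays of the Ts66Yah colony the smallest p in the 6 lists belonged to Dyrk4 (log2 change -0.39), Cabin1 (0.14), Csnk1e (0.30), Orai2 (-0.19), Cry2 (0.30) and Tnf (-0.47), with limma adjusted p from 0.41 to 0.57. None of these genes passed the test in either direction.

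**Figure D5:**
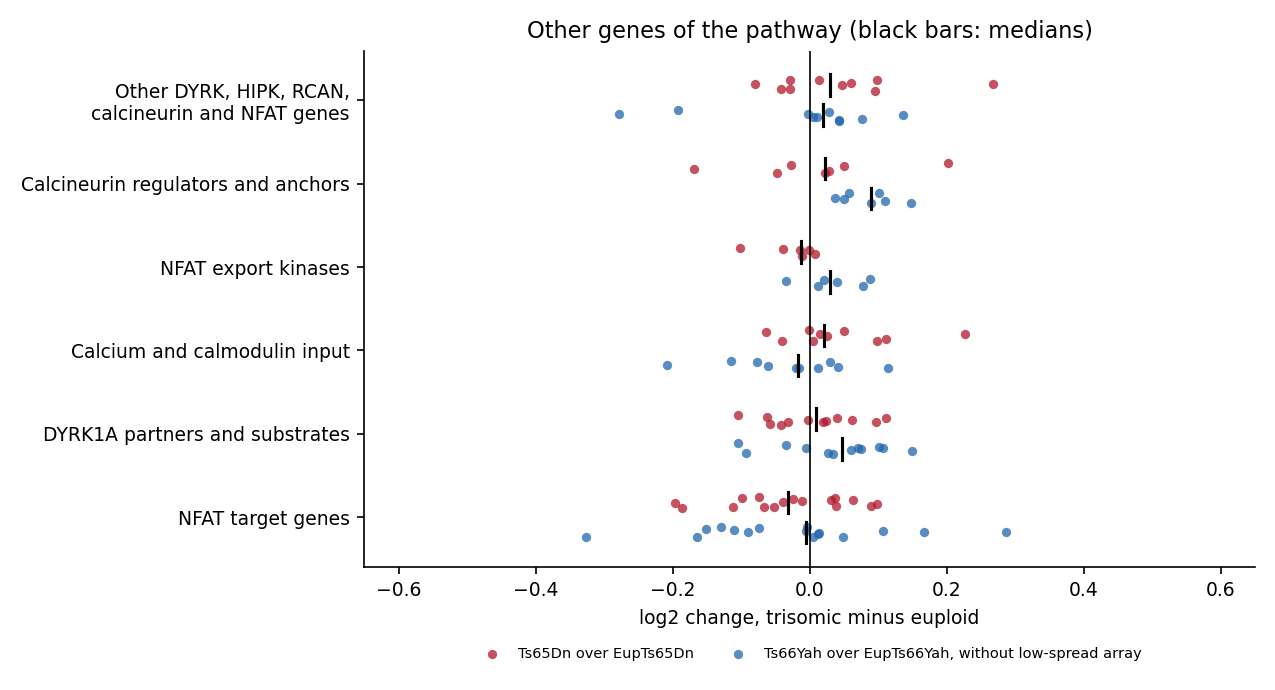
Log2 change, trisomic minus euploid, of each probe set in 6 lists of other pathway genes, in Ts65Dn (upper points of a list) and in Ts66Yah without the low-spread array (lower points), with the list's median as a black bar. The Ts65Dn points span -0.20 to 0.27 and the Ts66Yah points -0.33 to 0.29, on both sides of 0, and none passed the test.

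Of the markers of other cell types, 1 was called, the oligodendrocyte gene Mbp in Ts66Yah, in both settings. Of all probe sets, 0.171% were called there with all arrays and 0.932% without the low-spread array. In the latter setting 3 of 4 measured oligodendrocyte markers had log2 changes above 0, with a range of -0.09 to 0.62 and a median of 0.16. In Ts65Dn 3 of 4 lay above 0 as well, with a range of -0.06 to 0.31, and none was called. Averaged per array, the 4 measured oligodendrocyte markers lay at 5.75 to 6.98 in Ts66Yah and 5.74 to 6.81 in EupTs66Yah without the low-spread array, and 4.80 to 5.75 in Ts65Dn and 4.76 to 5.46 in EupTs65Dn. The part of such cells in the changes of Dyrk1a and Rcan1 was not tested.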

How the data were processed

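Per the submitters' processing notes, the deposited values are log2 signals summarised with RMA; the sources used here do not name its version, the array annotation or the build. The authors deposited 1 log2 value per probe set and array, and no further normalization was applied. Probe sets were named through the platform's annotation: 19572 of 22206 had 1 symbol, 0 several and 2634 none. Each colony was fitted alone with limma 3.58.1 in R 4.3.3 (lmFit and eBayes, two-sided), and p-values were adjusted across the 22206 probe sets after Benjamini and Hochberg at 10%. The difference of effects came from 1 fit of 89 arrays. The series' text counts 25 Ts66Yah arrays, and the labels give 24.

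The 10 members and the pathway lists were chosen with earlier results of these data known. Named pathway genes are those with the smallest p in each list. Alternatives were a litter block, a sex term, filters on dim probe sets, quantile normalization, median centring, array weights, another prior, the unpaired t-test and sets of arrays left out. Litters come from the labels: residuals of trisomic and euploid embryos correlated on average at 0.05 within a litter and at -0.01 between litters in the Ts65Dn colony, and at 0.04 and -0.01 in the Ts66Yah colony. Permutation tests were two-sided with 100000 resamples (SciPy 1.17.1). Promoter windows were RefSeq's (GRCm38.p6). The fits were tested on simulated data. The number of arrays limits the precision.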

Additional observations from a re-analysis of the deposited data

How the results depend on the processing

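Dyrk1a and Rcan1 stayed higher in both models under every setting tried. In Ts65Dn both passed in all 20 settings, at log2 changes of 0.36 to 0.42 for Dyrk1a and 0.47 to 0.58 for Rcan1. In Ts66Yah Dyrk1a passed in 18 of 25 settings (0.37 to 0.58) and Rcan1 in 24 of 25 (0.42 to 0.60). The 2 members called there became 1 at an adjusted p under 0.05 and 1 with the litter as a block (paired within litters), and 0 to 2 when each litter was left out in turn. Those fits held the low-spread array, except the one without its litter, WT18. Dyrk1a then had limma adjusted p of 0.11 with the block and of 0.11, 0.31, 0.14, 0.31 and 0.13 without litters WT11, WT12, WT13, WT15 and WT19, and Rcan1 0.19 without WT12, which left 0 called. The block changed no other call. Over all members, with the difference between the models included, 96 values changed sign and passed in neither setting, and no called value reversed. Among these was the Rcan1 difference between the models, at 0.02 with all arrays and -0.02 with the litter as a block. The correlation of Dyrk1a with Rcan1 in EupTs65Dn did not pass within litters (adjusted permutation p = 0.30). The series' marginal criterion was applied here to the limma fit, as unadjusted p under 0.01 and a ratio under 0.8 or over 1.2. By it 1 other pathway gene, Orai2, passed in the difference between models, against 0 by the adjusted p. Of all 22206 probe sets, 312 (1.41%) passed that criterion in the difference.

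Counts over all probe sets moved more. In Ts66Yah the 38 calls became 207 without the low-spread array, 156 without it and with the block, 91 without it and with array spread as a covariate, 158 with array weights, 210 with all groups in 1 fit, 272 without arrays against the sex label, of which it is one, 472 by the marginal criterion and 15 without WT12. In Ts65Dn the 109 became 68 with all groups in 1 fit and 246 by the marginal criterion. The cause was not tested.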
